A study of Homo sapiens with 6 samples.

Results

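The aryl hydrocarbon receptor (AHR) and 7 genes that work with it or respond to it were followed in MDA-MB-231 cells, a line from a human breast tumour of the triple-negative class, without estrogen receptor, progesterone receptor or HER2 amplification. The 8 genes are AHR, ARNT, AHRR, CYP1A1, CYP1B1, TIPARP, NQO1 and ALDH3A1, of 58735 genes in the deposited tables. They were chosen by gene name as the receptor, its partner, its repressor and its classic targets, with earlier results of the comparison described here already known. Their differences in that comparison are therefore a description, and nothing is supported with them.

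AHR is a transcription factor of the basic helix-loop-helix PAS family that is switched on by small planar molecules, among them combustion products, dietary indoles and tryptophan metabolites such as kynurenine. Without ligand it is held in the cytosol by HSP90 and co-chaperones such as PTGES3. With ligand it enters the nucleus, pairs with ARNT and binds dioxin response elements, short sites with a common core, near the genes it induces. The enzymes CYP1A1 and CYP1B1 then oxidise many of the ligands, and the repressor AHRR and the ADP-ribosyltransferase TIPARP damp the receptor in feedback. NQO1 and ALDH3A1 are detoxifying enzymes that also answer to NRF2, the oxidative stress factor.

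RNA-seq was made from wild-type MDA-MB-231 cells stained with PKH26, a membrane dye that is diluted at each division, and grown on for 12 days, and the labels name no other treatment. The brightest 1% of cells were sorted as slow-cycling cells (SCC). Cells of moderate brightness, named as low in dye in the sample characteristics, were sorted as rapid-cycling cells (RCC). Each of the 2 groups had 3 libraries, described as biological replicates of 1 cell line, so the p-values measure the spread between these 6 libraries. Summed counts ranged from 17655855 to 27831824 per library.

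The labelled cell type was checked against its markers. VIM was at a mean of 153 FPKM in SCC and 150 in RCC, while ESR1, PGR and CDH1 were each below 0.1 FPKM in the mean of both groups. ERBB2, the gene of HER2, and EPCAM were also listed as low or absent in this line but were measured. ERBB2 was at a mean of 8.25 FPKM in SCC and 7.23 in RCC, and EPCAM at 1.71 and 1.98. FPKM is the count scaled to gene length and library size, and levels of different genes are compared on that scale. The 12 leukocyte markers together summed to 0.614 to 2.19 FPKM in SCC, with the highest sum in SCC replicate 1, and 0.775 to 1.05 in RCC. The 8 fibroblast and endothelial markers summed to 2.11 to 2.24 and 1.91 to 2.18. None of either list was at 0 in every library. SCC replicate 1 stood apart by GC content: in the tenth of genes richest in GC its median log2 deviation from the mean of the libraries was 0.40, against -0.16 to 0.03 in the other 5. Mitochondrial genes took 4.45% to 4.75% of counts in SCC and 3.77% to 3.95% in RCC. The part of that share in the results below was not tested.

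The core of the dioxin response element is GCGTG, the letters the receptor pair is known to read. Its occurrences just upstream of RefSeq starts of the genes are shown for that reason. RefSeq start sites (GRCh38.p14) were matched by symbol for 6 of the 8 genes, with 9 windows of 250 bases upstream of a start. CYP1B1 and ALDH3A1 had no entry. The core, searched on both strands, was in 4 of the 9 windows and in 32.2% of the 35116 windows of the same length upstream of all RefSeq starts. The 6 occurrences lay upstream of RefSeq starts of CYP1A1, TIPARP and AHRR, but within the spans of these genes in GENCODE release 29, given below. Exons of that annotation covered all 250 bases of the TIPARP window that holds both its sites. They covered 82 bases of the CYP1A1 window, and 0 and 40 of the AHRR windows. The sites are thus not all outside transcribed sequence. They are printed 5′ to 3′ along the gene's strand with up to 12 bases on each side, the core in capitals (CACGC where it lies on the other strand).
CYP1A1, chr15:74725569-74725597, minus strand, core starting 57 bases before the start site: ccagggaaggagGCGTGgccacacgtaca
TIPARP, chr3:156674370-156674398, plus strand, 208 bases before: cgcgagaaaggaCACGCcccctcgcggga
TIPARP, chr3:156674436-156674464, plus strand, 142 bases before: cgaacgaacgcgCACGCgcgcgcaggggg
AHRR, chr5:321672-321700, plus strand, 30 bases before: ggcgggcggctcGCGTGccggggtggggc
AHRR, chr5:322360-322379, plus strand, 247 bases before the downstream start: ggcGCGTGacaggcaggggc
AHRR, chr5:322556-322584, plus strand, 42 bases before the downstream start: gcagaagggtggGCGTGtgcgcgcgttct

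The longer form TNGCGTG, which contains the core, was met in 1 of the 9 windows, at the AHRR site 30 bases before the start, and in 4.52% of all windows. The core of the antioxidant response element read by NRF2, TGACNNNGC, was in 1 member window, that of ARNT, and in 10.9% of all. The AP-1 site TGANTCA was in 0 member windows and in 6.57% of all. These are matches of letters within 250 bases and say nothing of binding.

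In the comparison of SCC with RCC the targets CYP1B1, CYP1A1 and TIPARP were higher in SCC, the receptor itself was a little higher in every SCC library without passing the threshold, and ARNT, AHRR and NQO1 did not pass it either. Of the 8 genes, 7 had enough counts to be tested by edgeR's quasi-likelihood test. ALDH3A1 did not pass the filter on low counts. A gene is called at a Benjamini-Hochberg adjusted p under 0.05 over all 15881 genes tested. Of the 7 genes 3 were called higher, against 1.69% of all genes tested, and 0 were called lower, against 0.378%. In either direction 2.07% of all genes were called. With AHR, 4 of the 7 were higher at an unadjusted p under 0.05, against 11.4% of all genes, and 0 lower, against 8.27%. DESeq2 called 3 higher, against 3.02% of all genes, and 0 lower, against 1.07%. With limma on log2(FPKM + 1) 2 were called higher, against 1.04%, and 0 lower, against 0.288%. The normalised counts of the groups did not overlap for 4 of the 7, against 27.8% of all genes tested. Without SCC replicate 1 edgeR called 4 higher, AHR being the addition, against 3.93% of all genes, and 0 lower, against 2.1%. Because this comparison was known when the genes were chosen, nothing is read from these counts. In bulk RNA, more cells that express a gene and more RNA per cell cannot be told apart.

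**Figure D1:**
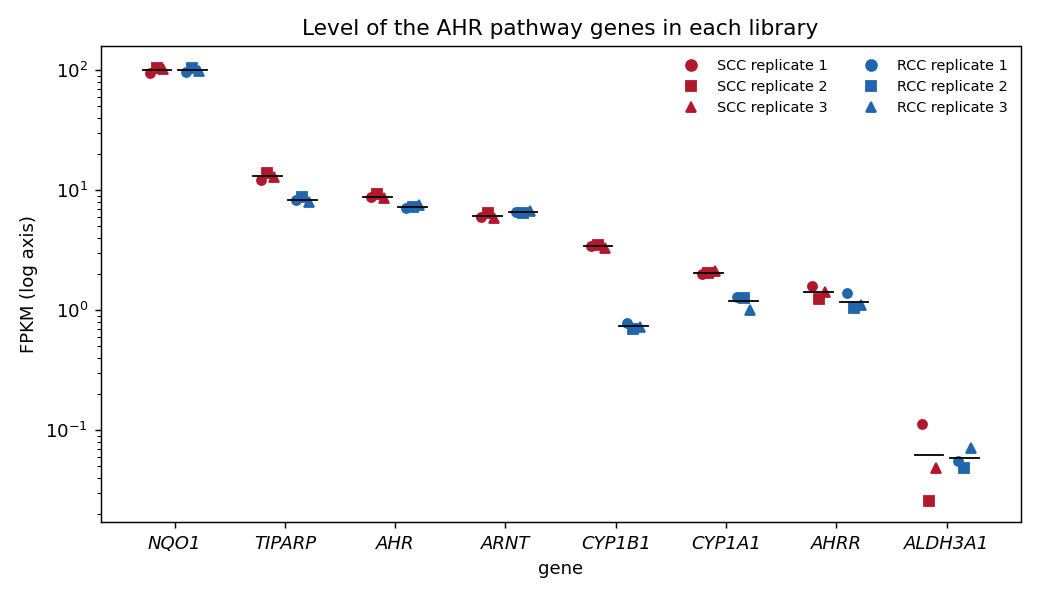
Level of each of the 8 genes in each of the 6 libraries, in FPKM on a log axis, with the group mean as a line. CYP1B1 has the widest gap between SCC (3.29 to 3.48) and RCC (0.694 to 0.788), and NQO1, near 100.4 and 99.7 in the mean, the highest level.

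CYP1B1 (ENSG00000138061, GRCh38 chromosome 2, 38066973 to 38109902, minus strand) encodes the P450 enzyme of this family that hydroxylates estradiol and many polycyclic hydrocarbons, and is the member often found outside the liver. Its level was 3.44, 3.48 and 3.29 FPKM in SCC replicates 1 to 3. In RCC replicates 1 to 3 it was 0.788, 0.694 and 0.731 FPKM. Every SCC library was above every RCC library by a wide margin, and the SCC libraries differed little among themselves. On the scale of CPM, counts scaled to library size by TMM, the SCC mean of CYP1B1 was 20.6 ± 0.69 and the RCC mean 4.45 ± 0.31 (SD, n = 3), a fitted fold of 4.62. On the log2 scale this was 2.21, standard error 0.115 (95% interval 1.95 to 2.46, edgeR adjusted p 2.02e-06). CYP1B1 ranked 22 by fold among the 268 genes called higher and 7 by p among all genes tested.

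CYP1B1 lies opposite an antisense gene, CYP1B1-AS1 (chromosome 2, 38073447 to 38231651), which shares 11.3% of the exon bases of CYP1B1. The antisense gene had 46, 14 and 28 counts in SCC and 9, 10 and 3 in RCC, with no overlap between groups and an adjusted p of 0.075 by edgeR. It was called higher by DESeq2 (0.0325). The use of strand in the authors' counting is not given in the sources used here, so reads of the pair cannot be told apart. The counts assigned to CYP1B1-AS1 were few beside the 411 to 567 assigned to CYP1B1 in SCC and 79 to 110 in RCC. The part of the antisense gene in the CYP1B1 counts was not tested. RMDN2, antisense to the other end of CYP1B1, differed little between SCC (3.76 ± 0.14 CPM) and RCC (3.61 ± 0.61 CPM; SD, n = 3).

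CYP1A1 (ENSG00000140465, chromosome 15, 74719542 to 74725610, minus strand) encodes the P450 enzyme most often used as a reporter of the active receptor. Its level was 1.99, 2.06 and 2.11 FPKM in SCC replicates 1 to 3. In RCC it was 1.28, 1.27 and 1.00 FPKM. All SCC libraries were above all RCC libraries, and RCC replicate 3 was the lowest. The mean CPM of CYP1A1 was 7.10 ± 0.16 for SCC against 4.08 ± 0.54 for RCC (SD, n = 3), a log2 fold change of 0.79 (standard error 0.152, 95% interval 0.46 to 1.13, edgeR adjusted p 0.0256).

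CYP1A1 had 139 to 187 counts per SCC library and 62 to 102 per RCC library. Its call was lost without SCC replicate 3 (adjusted p 0.0878) and without RCC replicate 1 (0.102), 2 (0.0907) or 3 (0.121), with log2 fold changes from 0.68 to 0.84. It was also lost with limma on log2(FPKM + 1), where the log2 difference was 0.48 (adjusted p 0.0637). CYP1A2, the neighbouring liver enzyme and another textbook target, had 2, 0 and 5 counts in SCC and 1, 0 and 3 in RCC, too few to test.

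TIPARP (ENSG00000163659, chromosome 3, 156673235 to 156706770, plus strand) encodes PARP7, which attaches ADP-ribose to AHR and other proteins and is itself induced by the receptor. Its level was 12.1, 14.0 and 12.9 FPKM in SCC replicates 1 to 3. In RCC it was 8.30, 8.69 and 7.99 FPKM. The groups did not overlap. The mean CPM of TIPARP was 66.1 ± 4.31 for SCC against 42.1 ± 1.59 for RCC (SD, n = 3), a log2 fold change of 0.65 (standard error 0.079, 95% interval 0.47 to 0.82, edgeR adjusted p 0.00125). It was called in each of the 6 fits that left out 1 library. The antisense gene at its start, TIPARP-AS1, had 3 to 12 counts per library.

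AHRR (ENSG00000063438, chromosome 5, 304176 to 438291, plus strand) encodes the repressor that competes with AHR for ARNT, and is a target of the receptor too. Its level was 1.58, 1.24 and 1.43 FPKM in SCC replicates 1 to 3. In RCC it was 1.38, 1.04 and 1.1 FPKM. The groups overlapped, and replicate 1 was the highest in both. SCC exceeded RCC by 0.28 on the log2 scale, standard error 0.149 (95% interval -0.05 to 0.61, edgeR adjusted p 0.321). A difference the size of that of TIPARP lay outside this interval, by a small margin. AHRR overlaps PDCD6 on the same strand and shares 3.2% of its exon bases with it, and PDCD6 was not called (log2 fold change -0.145, edgeR adjusted p 0.336).

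NQO1 (ENSG00000181019, chromosome 16, 69706996 to 69726951, minus strand) encodes the quinone reductase that turns quinones into hydroquinones. Its level was 93.8, 104.9 and 102.6 FPKM in SCC replicates 1 to 3. In RCC it was 96.9, 104.0 and 98.3 FPKM. The groups covered almost the same range. The difference was 0.02 on the log2 scale, standard error 0.065 (edgeR adjusted p 0.908), and its 95% interval from -0.13 to 0.16 holds neither the fold of TIPARP nor that of CYP1A1. The sign of NQO1 changed in 5 of 17 alternatives, all with values between -0.03 and 0.00. An antisense gene, AC092115.2, shares 17.7% of the exon bases of NQO1 and had 0 counts in every library.

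ALDH3A1 (ENSG00000108602, chromosome 17, 19737984 to 19748943, minus strand), an aldehyde dehydrogenase strongly induced by the receptor in liver cell lines, was near the limit of detection. It had 12, 2 and 4 counts in SCC and 5, 4 and 5 in RCC, 18 and 14 in sum. In FPKM these were 0.112, 0.0260 and 0.0483 in SCC and 0.0550, 0.0490 and 0.0711 in RCC. A difference was not detectable at this depth.

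**Figure D2:**
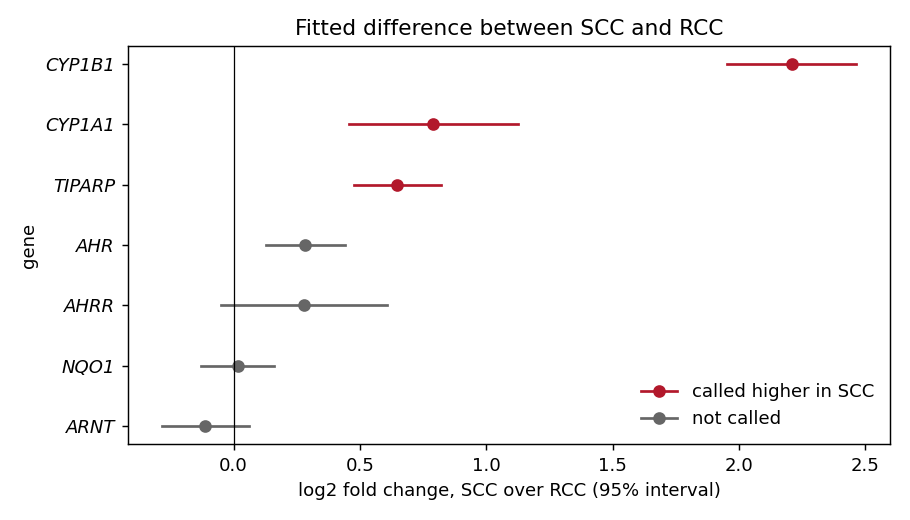
Fitted log2 fold change of SCC over RCC for the 7 tested genes, with 95% intervals from the edgeR fit. CYP1B1 (2.21), CYP1A1 (0.79) and TIPARP (0.65) were called higher in SCC and are drawn in red, and the intervals of AHRR, NQO1 and ARNT include 0.

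The receptor, AHR (ENSG00000106546, chromosome 7, 16916359 to 17346152, plus strand), was at 8.71, 9.22 and 8.53 FPKM in SCC replicates 1 to 3. In RCC it was 7.07, 7.22 and 7.54 FPKM. All SCC libraries were above all RCC libraries. The mean CPM of AHR was 71.8 ± 2.89 for SCC against 59.0 ± 1.98 for RCC (SD, n = 3), a log2 fold change of 0.28 (standard error 0.071, 95% interval 0.13 to 0.44). The edgeR unadjusted p was 0.00217 and the adjusted p 0.0729, so AHR was not called.

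AHR was called higher in 4 of 17 alternatives. Without SCC replicate 1, the library that stood apart by GC content, its log2 fold change was 0.29 (adjusted p 0.0040). With an offset for GC content it was 0.41 (0.00187), and the block by replicate number beside that offset gave 0.41 (3.78e-04). The longest AHR transcript has a GC content of 38.2%, the lowest of the 8 genes. Without the filter on low counts the adjusted p was 0.0481. It was not called without any other single library (0.0968 to 0.311). A protein-coding gene model on the same strand, AC019117.2, shares 29.4% of the exon bases of AHR and had 0 counts in every library. How reads of the shared exons were assigned is not given in the sources used here.

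ARNT (ENSG00000143437, chromosome 1, 150809705 to 150876768, minus strand), the partner that AHR shares with the hypoxia factors, was at 5.99, 6.43 and 5.82 FPKM in SCC replicates 1 to 3. In RCC it was 6.62, 6.46 and 6.70 FPKM. Each SCC library was lower than each RCC library in FPKM, and in TMM-scaled CPM SCC replicate 2 (42.1) lay just above RCC replicate 2 (42.0). The difference was -0.11 on the log2 scale, standard error 0.078 (95% interval -0.28 to 0.06, edgeR adjusted p 0.435). ARNT was called in 0 of 17 alternatives.

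Ranked by length-scaled level, the 8 genes kept nearly the same order in both groups. The 29.4% of AHR exon bases shared with AC019117.2 may have lost reads, which would lower the FPKM of AHR. Its place below TIPARP is therefore uncertain. In SCC the order was NQO1, TIPARP, AHR, ARNT, CYP1B1, CYP1A1, AHRR and ALDH3A1, and the libraries of neighbours in that order overlapped in 0 of 7 pairs. In RCC the first 4 and the last were the same, and the middle ran CYP1A1, AHRR, CYP1B1. There CYP1A1 (1.00 to 1.28 FPKM) and AHRR (1.04 to 1.38) overlapped, and the other 6 neighbouring pairs did not. CYP1B1 thus moved from below CYP1A1 and AHRR in RCC to above both in SCC. Its levels also depend on how reads of exons shared with other genes were assigned.

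Ratios of FPKM within a library do not depend on the scaling of that library. The levels of those with AHR or CYP1B1 do depend on how reads of exons shared with other genes were assigned, which is not given. CYP1B1 over CYP1A1 was 1.73, 1.69 and 1.56 in SCC replicates 1 to 3 and 0.616, 0.546 and 0.728 in RCC. CYP1B1 was the more abundant of the pair in every SCC library and the less abundant in every RCC library. AHR over ARNT was 1.45, 1.43 and 1.46 in SCC and 1.07, 1.12 and 1.13 in RCC, with a spread between libraries that was small beside the gap. TIPARP over AHR was 1.47 ± 0.069 in SCC and 1.15 ± 0.077 in RCC (SD, n = 3), also without overlap. AHR over its repressor AHRR had means of 6.31 ± 1.01 for SCC and 6.31 ± 1.03 for RCC (SD, n = 3), with overlap between the libraries.

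**Figure D3:**
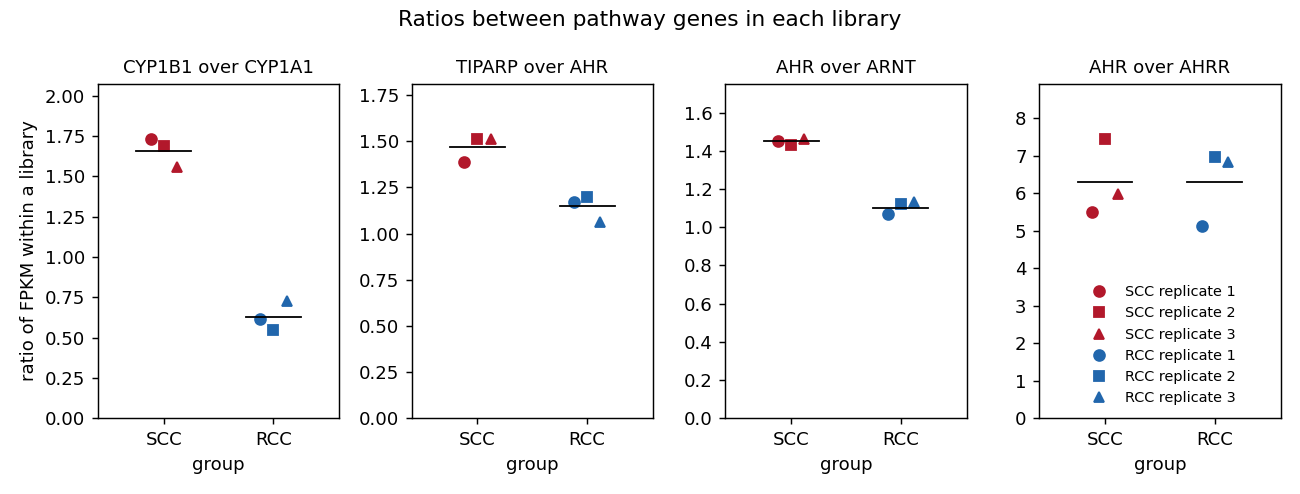
Ratio of FPKM between 2 genes within each library, by group, on axes that start at 0, with the group mean as a line. The ratio of CYP1B1 to CYP1A1 lies at 1.56 to 1.73 in SCC and 0.546 to 0.728 in RCC, whereas that of AHR to AHRR overlaps between the groups.

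The genes around the receptor were described by lists written from textbook knowledge of the pathway. In each the count called is read beside the 1.69% of all genes called higher, and the median log2 fold change beside 0.00 over all genes tested. Counts at an unadjusted p under 0.05 stand beside 11.4% of all genes higher and 8.27% lower, higher calls of DESeq2 beside 3.02%, of limma beside 1.04%, and of edgeR without SCC replicate 1 beside 3.93%. Of the 6 proteins of the cytosolic AHR complex and its partners, 0 were called in either direction by edgeR, DESeq2 or limma, and 1 was lower at an unadjusted p under 0.05. The median was -0.04. The lowest was PTGES3 at -0.21 (edgeR adjusted p 0.179). Of 11 coregulators, proteins that AHR and other factors recruit, 0 were called by the same tools and 1 was higher at an unadjusted p under 0.05. The lowest was NCOA2 at -0.16, and the median was 0.08.

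Among 10 tested bHLH-PAS factors, the relatives of AHR and ARNT, 1 was called higher and 0 lower. This was EPAS1, the hypoxia factor HIF-2α that also pairs with ARNT, with a mean CPM of 62.3 ± 5.02 for SCC against 47.4 ± 1.1 for RCC (SD, n = 3). The fitted difference was 0.40 on the log2 scale (edgeR adjusted p 0.0329). Leaving out SCC replicate 3 (0.114) or RCC replicates 1 (0.182), 2 (0.171) or 3 (0.148) ended the call. Limma did not call EPAS1 on log2(FPKM + 1) (0.0791), on log2(FPKM + 0.1) (0.0799) or on log2(FPKM + 1) without a filter (0.23). The median of the 10 was -0.01.

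Of 25 further genes known as AHR targets in one cell type or another, 16 were tested, and 1 was called higher and 0 lower. That gene was PTGS2, the inducible cyclooxygenase, which is also an early response gene of many other signals. It was at 9.31, 12.6 and 11.8 CPM in SCC replicates 1 to 3 and 4.65, 3.58 and 4.20 in RCC, a log2 fold change of 1.43 (edgeR adjusted p 8.68e-04). The median of the 16 was 0.12. With PTGS2, 5 had an unadjusted p under 0.05, all higher, against 11.4% of all genes: IL1B (1.62), STC2 (0.53), SCIN (0.32) and CCNG2 (0.28), by log2 fold change, named after their values were seen. Without SCC replicate 1, 3 were called higher, PTGS2, CCNG2 and EREG. The 9 that were not tested had few or no counts and included CYP1A2 and the glucuronosyltransferase genes UGT1A1, UGT1A6, UGT1A7 and UGT1A9, which share exons with each other, so that reads of that cluster may not have been assigned to any of them.

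Genes of tryptophan and kynurenine metabolism and transport were mostly not measurable or not called. Kynurenine is a ligand that cells make themselves, but the list also holds genes that act on kynurenine or in other routes. Its counts therefore do not describe the making of kynurenine alone. IDO1 had 0 counts in every library, whereas TDO2 had 15 to 28 per library and was not called (edgeR adjusted p 0.83). Of 17 genes in this list 9 were tested, with a median of -0.07. The only one called by edgeR was SLC3A2, the heavy chain of the amino acid transporter that carries tryptophan and kynurenine, with a mean CPM of 281 ± 21.6 for SCC against 225 ± 4.75 for RCC (SD, n = 3). The fitted difference was 0.32 on the log2 scale (adjusted p 0.0447), and the call ended when SCC replicate 3 (0.110) or RCC replicates 1 (0.225), 2 (0.164) or 3 (0.192) were left out, and with upper-quartile scaling (0.0503). Limma did not call SLC3A2 on log2(FPKM + 1) (0.105), on log2(FPKM + 0.1) (0.109) or on log2(FPKM + 1) without a filter (0.266). With the GC offset in edgeR its log2 fold change was 0.20 (0.0212).

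Partners of the CYP1 and quinone reductase reactions gave 0 calls by edgeR among 13 tested genes, 2 higher calls by DESeq2 (AKR1C1 and AKR1C3), and 4 higher at an unadjusted p under 0.05, where 11.4% of all genes were higher, with 0 lower. They ran from ALDH1A3 at -0.15 to AKR1C1 at 1.53 (edgeR adjusted p 0.0609). AKR1C1 and AKR1C3 belong to a cluster of closely similar copies among which reads may have been split, so their counts are uncertain. Without SCC replicate 1 AKR1C1 and CYB5R3 were called higher. The 12 genes of the NRF2 pathway, which regulates NQO1 alongside AHR, gave 0 calls by edgeR and 1 by DESeq2, and edgeR without SCC replicate 1 called 1 higher. At an unadjusted p under 0.05 the higher genes were 5, beside 11.4% of all genes, and the lower ones 2 (TXN and SLC7A11), beside 8.27%, and the median was 0.09. SRXN1 was highest at 0.50 and TXN lowest at -0.26. Of 13 ADP-ribosylation genes other than TIPARP, 0 were called by edgeR, DESeq2 or limma and 0 were under an unadjusted p of 0.05, and values ran from PARP11 at -0.23 to PARP10 at 0.25.

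Immediate early genes, which rise within minutes of growth factor or stress signals, moved with the same groups. Of the 18 listed, 13 were called higher by edgeR and 0 lower, with a median log2 fold change of 1.06, and 16 were higher with 0 lower at an unadjusted p under 0.05, where 11.4% of all genes were higher. DESeq2 called 14 higher (3.02% of all genes) and limma 10 (1.04%), with 0 lower by either, and edgeR without SCC replicate 1 called 14 (3.93%). Their summed level was 833 to 1070 FPKM in SCC and 555 to 575 in RCC. The called genes were FOSB (4.95), FOS (3.12), EGR3 (2.97), ATF3 (2.81), EGR2 (2.16), EGR1 (1.88), JUNB (1.80), ZFP36 (1.31), DUSP1 (0.97), IER2 (0.95), JUN (0.80), IER3 (0.74) and SGK1 (0.63), by log2 fold change. EGR3, with 3, 0 and 2 counts in RCC, and EGR2, with 6, 3 and 4, kept their calls without SCC replicate 1 but lost them without any other single library (adjusted p 0.0616 to 0.171 and 0.0671 to 0.202), with log2 fold changes of 2.41 to 3.55 for EGR3 over all 6 of these fits. IER3 lost its call without RCC replicate 2 (0.0667) or 3 (0.0715). Their part in the differences of CYP1B1, CYP1A1, TIPARP and PTGS2 was not tested. Of 10 proliferation genes 0 were called by edgeR, and CCNE2, a cyclin of S-phase entry (-0.47), and RRM2 (-0.18) were lower at an unadjusted p under 0.05. DESeq2 called 1 lower, CCNE2, and PCNA was highest at 0.12. Without SCC replicate 1 CCNE2 was called lower and PCNA higher.

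Markers of other cells gave 0 calls by edgeR or DESeq2. Of the 12 leukocyte markers 2 had enough counts to be tested, PTPRC at 1.84 (edgeR adjusted p 0.206) and CSF1R at 0.51 (0.401) on the log2 scale, and of the 8 fibroblast and endothelial markers 3 were tested, from KDR at 0.08 to PECAM1 at 0.14. PTPRC was at 0.98 ± 0.89 CPM in SCC against 0.29 ± 0.23 in RCC (SD, n = 3), and its libraries overlapped. It was highest in SCC replicate 1 (1.97 CPM). The libraries of CSF1R did not overlap between the groups, as was so for 27.8% of all genes tested. Of the 9 tested markers of the breast cancer line 0 were called by edgeR, with values from EPCAM at -0.19 to KRT8 at 0.26, and KRT8 was called by DESeq2. The part of these markers in the differences of the receptor's targets was not tested.

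**Figure D4:**
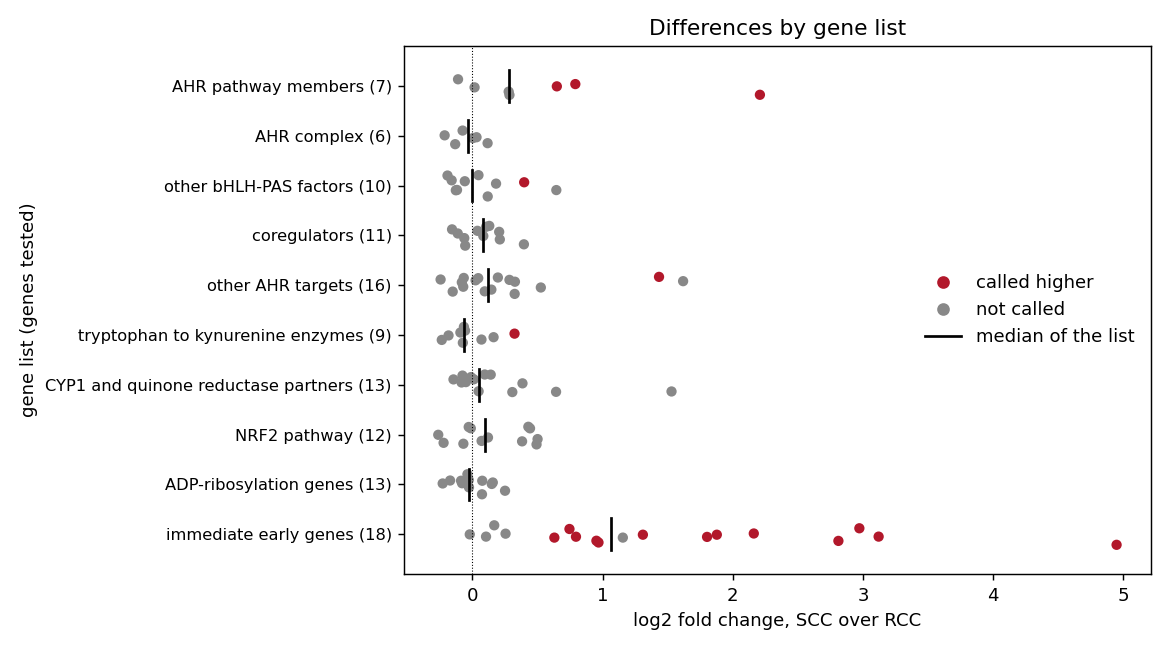
Log2 fold change of SCC over RCC for each tested gene of the lists, 1 point per gene, red where called higher, with the median of the list as a line and the number tested in brackets. CYP1B1, at 2.21, has the highest value plotted outside the immediate early genes, and called with it are CYP1A1 (0.79), TIPARP (0.65), EPAS1 (0.40), PTGS2 (1.43) and SLC3A2 (0.32), while the immediate early genes reach 4.95.

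The genes most like AHR and TIPARP were found by Pearson's r of log2 CPM over the 6 libraries among 10912 other genes with a mean of at least 5 CPM. The points fall into the 2 groups, so a high r partly restates that a gene differs between them in the same direction. The size of that difference cannot be read from r, and no test was made. For AHR the 3 highest were ID2, an inhibitor of helix-loop-helix factors (r 0.992), the cholesterol transporter gene ABCG1 (0.988) and the interferon-induced IFI6 (0.985), and 74 genes exceeded 0.95. For TIPARP they were TXNIP, an inhibitor of thioredoxin (0.997), RAB33B, a GTPase of vesicle transport (0.995), and CCNL1, a cyclin tied to splicing (0.991), and 121 genes exceeded 0.95. Their log2 fold changes were 1.26, 0.80 and 0.44 for the genes like AHR and 0.85, 0.49 and 1.02 for those like TIPARP.

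**Figure D5:**
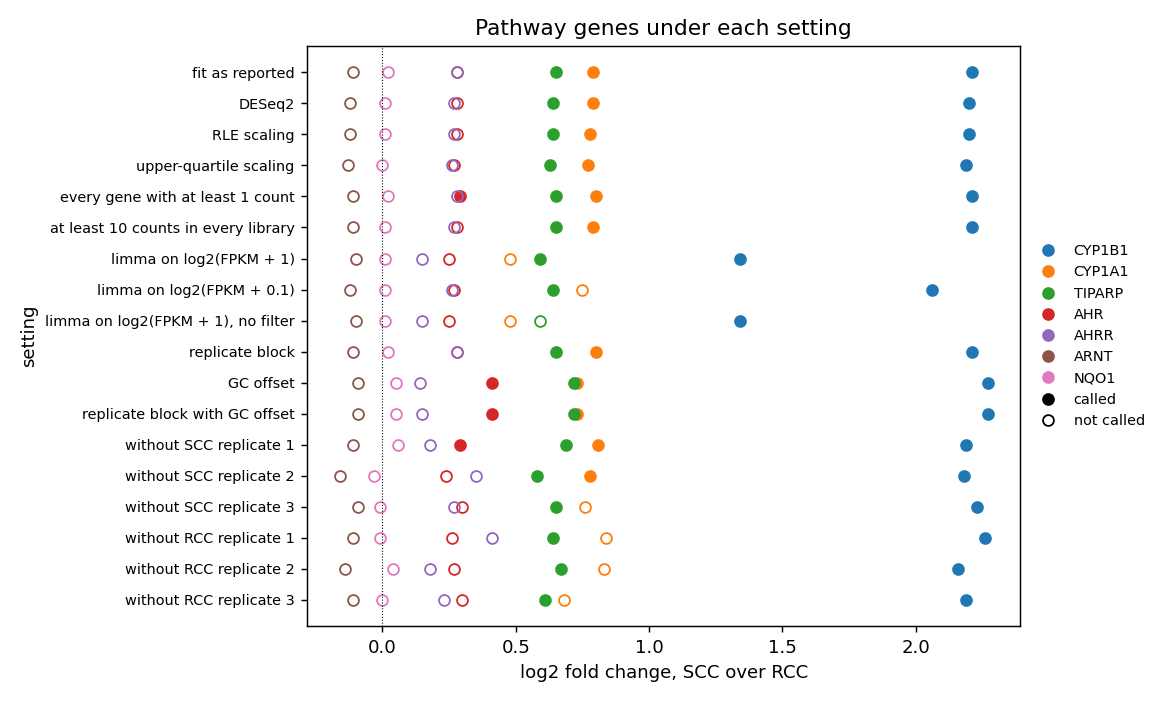
Log2 fold change of the 7 tested genes in the fit as reported and under 17 other settings, filled where called at an adjusted p under 0.05. CYP1B1 is filled in every row, at 1.34 to 2.27 over the alternatives, TIPARP in all but 1, and AHR is filled in 4 alternatives.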

How the data were processed

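The authors deposited, for each of the 6 libraries, raw gene counts in whole numbers and FPKM values. HISAT2 2.0.5 and featureCounts 1.5.0-p3 are named in the submitters' processing notes. The genome build and the use of strand are not given in the sources used here, but all 58735 rows had the IDs and positions of GENCODE release 29 on GRCh38, whose coordinates are given. Per the labels' protocols, libraries came from total RNA with an NEBNext Ultra kit. Deposited FPKM values were checked for genes with high counts in each library. There each value was the count over gene length and 1 constant per library, which was 0.983 to 1.02 times the summed count. Values of genes with low counts were not checked. Names of 27 genes turned into dates were restored by gene ID.

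Genes were kept by filterByExpr (minimum count 10). TMM scaling and a fit by group alone followed in edgeR 4.0.16 in R 4.3.3 (glmQLFit, glmQLFTest, two-sided, Benjamini-Hochberg). Standard errors are the log2 fold change over the square root of F. The scripts were tested on simulated data. Alternatives used DESeq2 1.42.0, limma 3.58.1 with a mean trend (log2 of FPKM with 1 or 0.1 added, genes reaching FPKM 1 in 3 or more libraries), other scalings and filters, a GC offset (lowess, span 0.3, longest transcript), a block by replicate number, and leaving out 1 library at a time. Counts of libraries within a group differed by more than sampling noise. Chi-square per degree of freedom was 28.0 and 21 for the pairs with SCC replicate 1, and 3.31 to 4.3 for the other pairs. The members and lists were chosen with earlier results of these data known, and HES1, IL6, CXCL8, VEGFA and CDKN1B, whose values were among those results, were left out of the target list. Named were all members, called list genes, the extremes of lists without calls (some are not reported here), overlapping genes, and the 3 genes most like AHR and TIPARP.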

Additional observations from a re-analysis of the deposited data

How the results depend on the processing

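CYP1B1 was called in all 17 alternatives (log2 fold change 1.34 to 2.27), TIPARP in 16 (0.58 to 0.72; adjusted p 0.0544 with limma on log2(FPKM + 1) without a filter), CYP1A1 in 10 (0.48 to 0.84) and AHR in 4 (0.24 to 0.41). AHRR and ARNT were called in none of the 17 and kept their sign. The number of the 8 genes called higher was 3. It was 4 for every gene with at least 1 count and with the GC offset, alone or with the replicate block, 2 with limma on log2(FPKM + 1) or log2(FPKM + 0.1), and 1 with limma on log2(FPKM + 1) without a filter. Uncalled values changed sign for NQO1 (0.00 with upper-quartile scaling, -0.03 without SCC replicate 2, -0.01 without SCC replicate 3, -0.01 without RCC replicate 1 and 0.00 without RCC replicate 3, up to 0.06 without SCC replicate 1), for PARP10 (-0.06) with the GC offset, alone or with the replicate block, for PECAM1 (-0.03 without RCC replicate 1, up to 0.27 without RCC replicate 3) and for KDR (-0.13 without SCC replicate 2 and -0.11 without RCC replicate 3, up to 0.39 without RCC replicate 1).

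Over all genes, 268 were called higher and 60 lower. DESeq2 gave 480 and 170, every gene with at least 1 count 995 and 315, limma on log2(FPKM + 1) 130 and 36, on log2(FPKM + 0.1) 117 and 34, and on log2(FPKM + 1) without a filter 48 and 1. The GC offset gave 523 and 245. The replicate block gave 350 and 106, and with the GC offset 621 and 432. Same-numbered libraries did not deviate together (correlations -0.009, 0.025 and -0.079). This cannot exclude a pairing, because the deviations are from group means that SCC replicate 1, which stood apart, enters. The block left the members called higher at 3. Without 1 library the counts ranged from 99 to 642 higher and from 8 to 343 lower, and the members called higher from 2 to 4. For each of these changes the cause was not tested. Depth limits ALDH3A1, which had 18 counts in SCC and 14 in RCC.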
